A study of Drosophila melanogaster with 8 samples.

Results

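The genes described here encode the nuclear subunits of the respiratory chain and of ATP synthase, and were taken by a rule on gene names. All genes whose symbol begins with ND-, SdhA to SdhD, UQCR-, COX followed by a digit, or ATPsyn were taken, which gave 80 of the 17518 named genes in the table. Of these, 62 were somatic genes and 18 were "-like" paralogues, whose symbols end in L. The somatic genes comprised 34 of complex I, 4 of complex II, 6 of complex III, 7 of complex IV and 11 of complex V, and the paralogues 6, 2, 2, 4 and 4 in the same order.

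The respiratory chain sits in the inner mitochondrial membrane. Complex I (NADH dehydrogenase) and complex II (succinate dehydrogenase) pass electrons to ubiquinone, complex III (cytochrome bc1) passes them on to cytochrome c, and complex IV (cytochrome c oxidase) hands them to oxygen. Complex V (ATP synthase) uses the proton gradient built on the way to make ATP, and except for complex II each complex joins nuclear subunits to subunits encoded by mitochondrial DNA. In Drosophila many of the -like paralogues are known as duplicates expressed mainly in the testis.

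RNA was sequenced from heads of male w1118 flies, a white-eyed laboratory strain, aged 1 to 3 days at the start and kept for 1 day either on food (sucrose and yeast in agar) or under starvation (agar alone). Each condition had 4 samples of 30 flies. Both conditions shared strain, sex and age and differed in the food only, and the question was how transcript levels responded to 1 day of starvation. Whole heads hold brain, eye, fat body, glia and muscle, and in such bulk samples fewer cells of a type and less RNA per cell cannot be told apart.

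The libraries held 47936038 to 53168449 counts. The somatic genes together took 1.27% to 1.59% of them. Starvation replicate 3 stood apart from the other libraries in the measures that follow. Transcripts of the mitochondrial genome made up 21.9% of what was counted in it, while the other 7 libraries held 14.1% to 16.6%. Across genes, its deviation from the mean of all libraries fell with exonic length (Spearman's rho -0.54), whereas rho lay between 0.26 and 0.36 in the other 3 starvation libraries. In food replicates 1 to 4 rho was -0.05, -0.04, -0.11 and 0.16. Starvation replicates 1, 2 and 4 thus also lay outside the food range, in the direction that places short genes lower. Neuron markers summed to 3121 CPM (each count per 1e+06 counts of its library, scaled by TMM factors) in starvation replicate 3 and to 4649 to 5165 CPM in the other starvation libraries. By contrast, the 13 mRNAs of the mitochondrial genome alone summed to 55725 CPM in starvation replicate 3, inside the food range of 50420 to 57067 CPM. In the other starvation libraries they summed to 44900 to 47276 CPM. Counts of called genes are therefore given with and without starvation replicate 3. Markers of the head tissues were abundant on food, with ninaE, the main rhodopsin, at 11449 CPM, Mhc, the muscle myosin heavy chain, at 2832 CPM and nSyb, the neuronal synaptobrevin, at 1279 CPM.

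On food, the subunits of complexes IV and V were the more abundant per length, and levels varied more widely within complexes I, III and V than within complexes II and IV. The median level per length, in CPM per kilobase of exonic length, was highest in complex V at 332, followed by complex IV at 285, complex III at 171, complex II at 129 and complex I at 119. Over the 4 food libraries these medians spanned 297 to 372 in complex V, 280 to 289 in complex IV, 164 to 184 in complex III, 126 to 132 in complex II and 116 to 122 in complex I. None of the neighbouring ranges overlapped on food. Under starvation all neighbouring ranges overlapped except those of complexes III and IV, at 135 to 201 and 225 to 320 CPM per kilobase.

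The highest level of any member was that of ATPsynC (chromosome 3R, 31216145 to 31219630), the proteolipid that forms the rotating c-ring of ATP synthase, at 1088 ± 17.7 CPM per kilobase on food (SD, n = 4). ATPsynbeta, the catalytic subunit, followed at 827 ± 30.4, and blw, the alpha subunit whose name lies outside the rule, stood at 793 CPM per kilobase. These 3 proteins are present in several copies in each enzyme. The lowest somatic gene of complex V was ATPsyndelta, a subunit of the central stalk, at 48.9 ± 1.52 CPM per kilobase, with the longest exonic length of the somatic genes at 3817 bases.

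The other complexes spanned a narrower range, with 1 exception. Complex II ran from SdhD, a membrane anchor, at 117 ± 5.32 to SdhB, the iron-sulfur subunit, at 149 ± 8.95 CPM per kilobase. In complex III, UQCR-11 was lowest at 86.1 ± 3.86 and UQCR-14 highest at 394 ± 17.9, and in complex IV, COX8 was lowest at 233 ± 19.4 and COX5A highest at 435 ± 28.8. Complex I ran from ND-B18 at 41.5 to ND-MLRQ at 425 ± 17.2 CPM per kilobase, apart from ND-B8. ND-MLRQ is the counterpart of mammalian NDUFA4, which is now assigned to complex IV.

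ND-B8 (chromosome 2L, 4454626 to 4455207, 460 exonic bases), the counterpart of mammalian NDUFA2, was almost absent at 1.60 ± 0.364 CPM per kilobase on food. It had CPM of 0.605, 0.591, 0.800 and 0.940 in the 4 food libraries and 0.461, 0.632, 0.646 and 0.489 in the 4 starvation libraries. All 8 libraries were low, and the conditions overlapped. Every other somatic gene had at least 1519 counts in every library. The level of ND-B8 was thus closer to the -like paralogues than to its own complex.

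**Figure D1:**
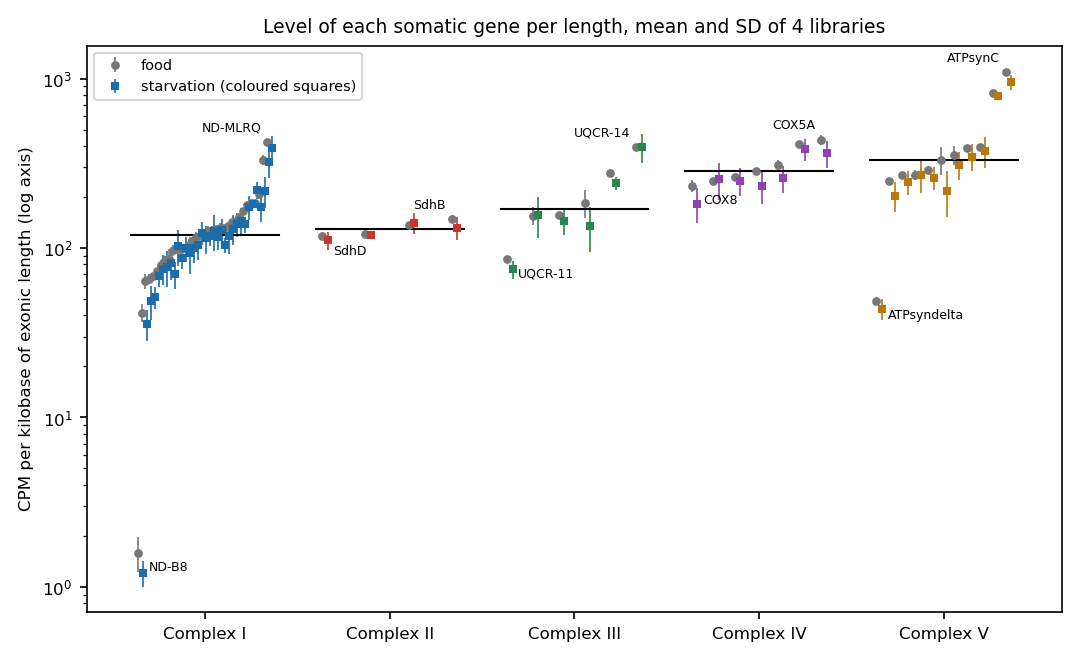
Mean level of each of the 62 somatic genes in CPM per kilobase of exonic length (log axis), by complex and sorted by the food level, with circles for food, squares for starvation and bars for the SD of 4 libraries. The black lines are the food medians of 119, 129, 171, 285 and 332 for complexes I to V, and ND-B8 lies far below all others at 1.60 on food.

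With all 8 libraries, few of these genes were called between starvation and food. Of the 68 members that passed the filter on low counts, which were all 62 somatic genes and 6 paralogues, 2 were lower and 0 were higher at an adjusted p under 0.05 in edgeR's quasi-likelihood test. Among the 12048 genes tested, 26.7% were called in edgeR, 16.7% as lower and the remaining 1210 as higher. No member passed both the adjusted p and a 2-fold change, the thresholds of the study, by edgeR, DESeq2 or limma-voom, against 6.30% of the genes tested. At an unadjusted p under 0.05 in edgeR, 7 members were lower and 1 was higher, beside 2592 and 1871 of the 12048 genes tested. DESeq2 tested 73 members and called 3 lower and 1 higher, beside 2078 and 1511 of 13117 genes. Limma-voom called 3 lower and 0 higher, beside 2025 and 1171 of 12048 genes.

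The fold changes of the somatic genes were small and lay mostly below 0. They ran from -0.60 (ATPsynF) to 0.26 (ND-51) on the log2 scale, and 48 of the 62 were below 0. Their median was -0.08, against -0.01 for all genes tested, and it was 0.04 with upper-quartile factors, which moved the median of all genes to 0.10. By complex the medians were -0.05 for complex I, -0.04 for complex II, -0.15 for complex III, -0.25 for complex IV and -0.16 for complex V. With upper-quartile factors they were 0.07, 0.08, -0.03, -0.13 and -0.04. In complex I the 7 core subunits, which carry the redox centres, had a median of 0.02 and the 27 accessory subunits one of -0.06.

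ND-75 (chromosome X, 8248651 to 8251687), the largest subunit of the NADH-oxidizing arm of complex I, was lower under starvation. It had 373, 328, 322 and 353 CPM in the 4 food libraries and 314, 280, 253 and 256 CPM in the 4 starvation libraries. All starvation libraries lay below all food libraries. Its log2 fold change was -0.32 (SE 0.096, edgeR adjusted p = 0.030), and it stayed below 0 under every alternative tried, while the adjusted p ranged from 0.0086 to 0.11. Leaving out food replicate 1, 2 or 4 or starvation replicate 2 or 4 ended the call, with adjusted p between 0.059 and 0.10.

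ND-B14.5A (chromosome X, 2172526 to 2173432), the counterpart of mammalian NDUFA7, was the other gene called. Its values were 57.8, 50.8, 50.7 and 53.9 CPM on food and 45.4, 40.4, 47.2 and 33.1 CPM under starvation. The conditions did not overlap, and starvation replicate 4 was the lowest library. The log2 fold change was -0.36 (SE 0.11, edgeR adjusted p = 0.029), with adjusted p between 0.0074 and 0.12 over the alternatives. Leaving out food replicate 1, 2 or 4 or starvation replicate 1, 2 or 4 ended the call, with adjusted p between 0.054 and 0.092.

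ND-51 (chromosome 2L, 6060842 to 6062757), the flavoprotein that binds NADH, went the other way from its partner ND-75. It had 294, 285, 306 and 284 CPM on food and 310, 337, 408 and 347 CPM under starvation. Every starvation library was above every food library, although the smallest gap was narrow. The log2 fold change was 0.26 (SE 0.096), and with all libraries it did not pass the adjusted p (edgeR, 0.067). It passed in 5 of 17 alternatives, among them DESeq2, upper-quartile factors and the fit without starvation replicate 3 (0.18, edgeR adjusted p = 0.024).

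UQCR-C1, a core protein of complex III, was the only other somatic gene whose conditions did not overlap. It had 475, 431, 432 and 464 CPM on food and 419, 376, 423 and 356 CPM under starvation, a log2 fold change of -0.19 (SE 0.088, edgeR adjusted p = 0.14). In all, conditions did not overlap for 4 of the 62 somatic genes, 3 lower and 1 higher, against 31.2% of the genes tested.

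**Figure D2:**
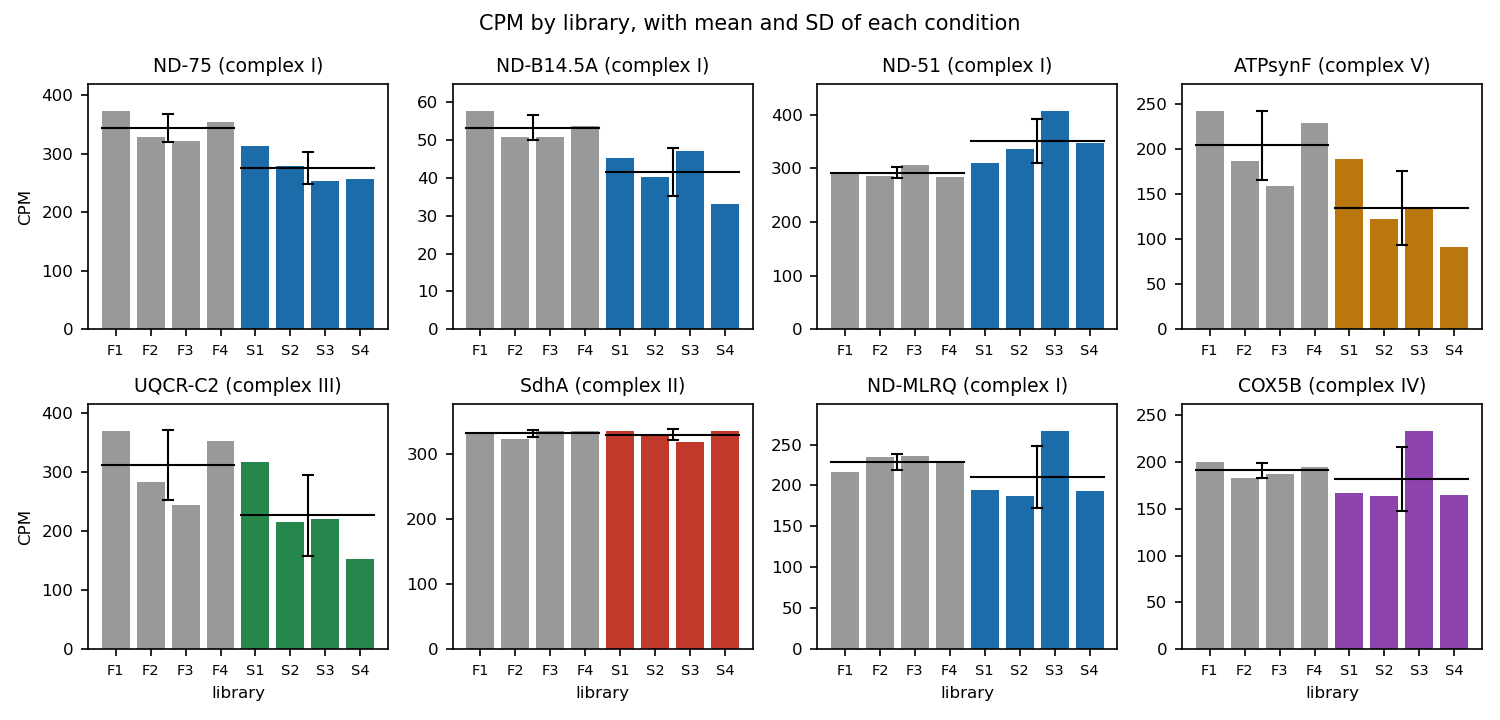
CPM in each library for 8 genes (F1 to F4 food in grey, S1 to S4 starvation in colour), with the mean and SD of each condition as black lines. ND-75 and ND-B14.5A are lower and ND-51 is higher in all 4 starvation libraries, ATPsynF and UQCR-C2 vary within both conditions, SdhA is level, and ND-MLRQ and COX5B are highest in S3.

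The small number of calls went with the place of starvation replicate 3. Measured against each gene's food mean, the median log2 ratio of the 62 somatic genes was 0.01, -0.04, 0.02 and -0.00 in the 4 food libraries. In starvation replicates 1, 2 and 4 it was -0.15, -0.23 and -0.22, and in starvation replicate 3 it was 0.22. The starvation libraries therefore fell on both sides of the food libraries. In 53 somatic genes (85.5%) starvation replicate 3 had the highest starvation value, against 39.2% of all genes tested, and in 42 (67.7%) it was above every food library, against 34.2% of all genes tested. In 41 somatic genes (66.1%) starvation replicates 1, 2 and 4 were all below every food library, against 24.0% of the genes tested, and in 1, ND-51, all were above.

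The pattern was present in each complex to a different extent. In complex I the median log2 ratio was -0.15, -0.21 and -0.18 in starvation replicates 1, 2 and 4 and 0.28 in replicate 3. In complex IV the corresponding values were -0.15, -0.38 and -0.52 against 0.12, and in complex V -0.23, -0.27 and -0.29 against 0.11. In complex II, by contrast, replicate 3 was at 0.05, and the others were at -0.03, -0.13 and -0.13. Median library-to-library variation of the somatic genes, as the highest over the lowest value, was 1.10 on food and 1.44 under starvation, against 1.19 and 1.38 for all genes tested.

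The genes of the set are mostly short. The somatic genes had a median exonic length of 862 bases against 1899 for all genes tested, and 57 of the 62 were shorter than the latter. Starvation replicate 3 was the highest starvation library in 51 of those 57 and in 2 of the other 5. SdhA, one of the longer genes and the flavoprotein of complex II, had 333, 323, 335 and 336 CPM on food and 336, 330, 318 and 335 CPM under starvation, and it was lowest in replicate 3. ND-MLRQ, one of the shortest with 538 exonic bases, had 216, 235, 237 and 227 CPM on food and 194, 187, 267 and 193 CPM under starvation. Its replicate 3 was above all food libraries and its other starvation libraries were below them. What part RNA quality or transcript length had in the level of this library was not tested.

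**Figure D3:**
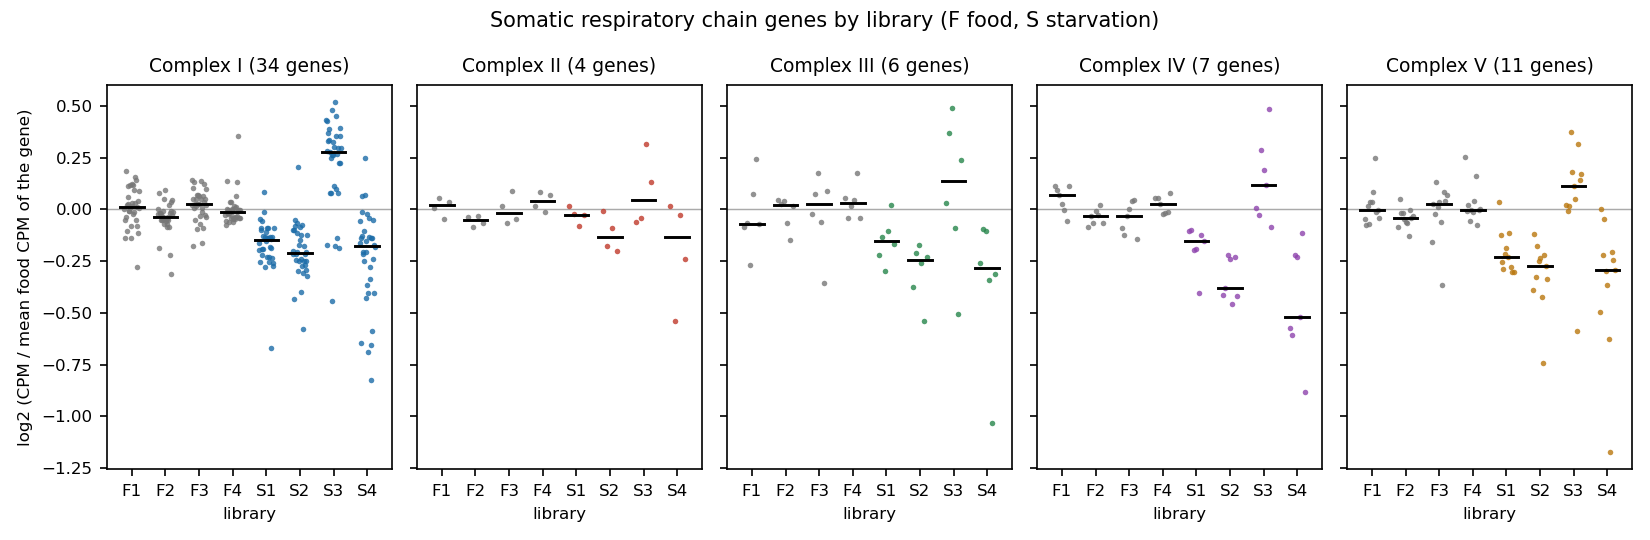
Log2 ratio of each somatic gene's CPM to its food mean (vertical axis) in each library (horizontal axis, F1 to F4 food, S1 to S4 starvation), 1 panel a complex, with the median as a black line. The medians of S1, S2 and S4 lie below 0 in every complex, while S3 lies above 0, at 0.28 in complex I and 0.05 in complex II.

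Without starvation replicate 3, 35 of the 68 members tested (51.5%) were lower and 1 was higher in edgeR's test. Among the 12208 genes tested in that fit, 21.6% were lower and 15.9% higher. The median of the somatic genes was -0.22, against 0.00 for all genes, and no member passed the adjusted p together with a 2-fold change, as 6.63% of all genes did. The lower genes were 18 of 34 in complex I, 0 of 4 in complex II, 3 of 6 in complex III, 7 of 7 in complex IV and 7 of 11 in complex V. All were somatic genes, and ND-51 was the gene that was higher.

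How many were lower depended on the scaling and on length. These settings were chosen after seeing the data. Still without starvation replicate 3, RLE size factors gave 34 lower (21.1% of all genes), upper-quartile factors 14 (16.7%), and taking out each library's trend with exonic length 15 (20.0%). ND-51 was higher under all 3, beside 27.7% of all genes with upper-quartile factors and 16.5% with the length trend taken out. The complex IV count fell from 7 of 7 to 1 of 7 with the length trend taken out or with upper-quartile factors, whereas complex V kept 6 of 11 in both. With the length trend taken out the share of members called lower was near that of all genes, and in either direction 16 of 68 members (23.5%) were called against 36.4% of all genes.

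There were 12 members lower in all 4 of these fits, 17.6% of the members tested against 16.2% of all genes, so the share was near the background. They were ATPsynC of the c-ring, ATPsyngamma and ATPsyndelta of the central stalk, ATPsynO and ATPsynD of the peripheral stalk and ATPsynE of the membrane part, together with COX7A, UQCR-11, ND-B14.5A, ND-B15, ND-B16.6 and ND-PDSW. COX7A (chromosome 3R, 8339944 to 8341043), a small subunit of complex IV, had the smallest adjusted p without replicate 3. It had 198, 195, 205 and 197 CPM on food and 150, 145, 216 and 139 CPM under starvation. Replicate 3 was the highest of all 8 libraries and the other starvation libraries were the lowest. Its log2 fold change was -0.29 (SE 0.13, edgeR adjusted p = 0.14) with all libraries and -0.46 (SE 0.049, edgeR adjusted p = 7.5e-05) without replicate 3.

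In ATP synthase, ATPsynO, the counterpart of mammalian OSCP, had 304, 307, 330 and 314 CPM on food and 254, 249, 353 and 256 CPM under starvation, a log2 fold change of -0.17 with all libraries and -0.31 (edgeR adjusted p = 7.6e-04) without replicate 3. ATPsyngamma, the rotor shaft, had 421, 410, 433 and 421 CPM on food and 342, 349, 465 and 356 CPM under starvation. Its log2 fold change was -0.16, and -0.27 (edgeR adjusted p = 0.0014) without replicate 3. In both genes replicate 3 was above every food library and the other starvation libraries were below, whereas in ATPsynF it was below every food library and in ATPsynB, ATPsynbeta and ATPsynC within the food range.

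ATPsynC, the most abundant transcript of the set, was less affected by that library. It had 2180, 2126, 2121 and 2188 CPM on food and 1806, 1718, 2177 and 1851 CPM under starvation, with replicate 3 close to food replicate 1. Its log2 fold change was -0.19 (SE 0.097, edgeR adjusted p = 0.18), and -0.26 (edgeR adjusted p = 0.0027) without replicate 3. ATPsynbeta was at 1875, 2042, 2010 and 1962 CPM on food and 1814, 1815, 1961 and 1976 CPM under starvation, and was not called in either fit (-0.06, 95% interval -0.25 to 0.13 with all libraries). The conditions overlapped for both genes. ATPsynbeta and ATPsynC thus differed in call without replicate 3, and the difference between them was not tested.

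In complex I the fall without replicate 3 was largest, among genes called, in ND-B17 (-0.48, edgeR adjusted p = 0.024), ND-B14.5A (-0.43, 0.0074) and ND-PDSW (-0.32, 6.7e-04). ND-PDSW had 98.0, 95.5, 99.0 and 97.3 CPM on food and 81.4, 78.0, 114 and 73.7 CPM under starvation. Its food libraries were within 1.04-fold of each other, and replicate 3 again stood above them while the rest stood below. Of the core subunits 3 were lower and 1 higher, and of the accessory subunits 15 of 27 were lower and 0 higher. In that fit 21.6% of all genes were lower and 15.9% higher. All 27 accessory subunits had a fold change below 0 there. With the length trend also taken out, ND-19 (0.011), ND-B14.5B (0.015) and ND-B14.7 (0.022) were above 0, and 6 of the 34 complex I genes were lower.

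Complex IV had the lowest median fold change of the 5 complexes in both fits. COX8 had 129, 114, 108 and 126 CPM on food and 108, 89.7, 113 and 64.9 CPM under starvation, with a log2 fold change of -0.35 (SE 0.15, edgeR adjusted p = 0.12) and -0.45 (edgeR adjusted p = 0.033) without replicate 3. COX5A had 370, 339, 318 and 360 CPM on food and 324, 266, 340 and 227 CPM under starvation, with -0.26 (edgeR adjusted p = 0.16) and -0.34 (edgeR adjusted p = 0.030). Starvation replicate 4 was the lowest library for both genes, and the conditions overlapped.

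Complex II was the complex without a call in either fit. By edgeR, DESeq2 and limma-voom 0 of its 4 genes were called with all libraries, and none was at an unadjusted p under 0.05. Without replicate 3, 1 of 4 had an unadjusted p under 0.05 by edgeR. The 95% intervals with all libraries were -0.17 to 0.15 for SdhA, -0.43 to 0.07 for SdhB, -0.18 to 0.26 for SdhC and -0.28 to 0.13 for SdhD, which leave room for changes of the size seen in other complexes. Its genes numbered 4, and whether it differed from the other complexes was not tested.

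**Figure D4:**
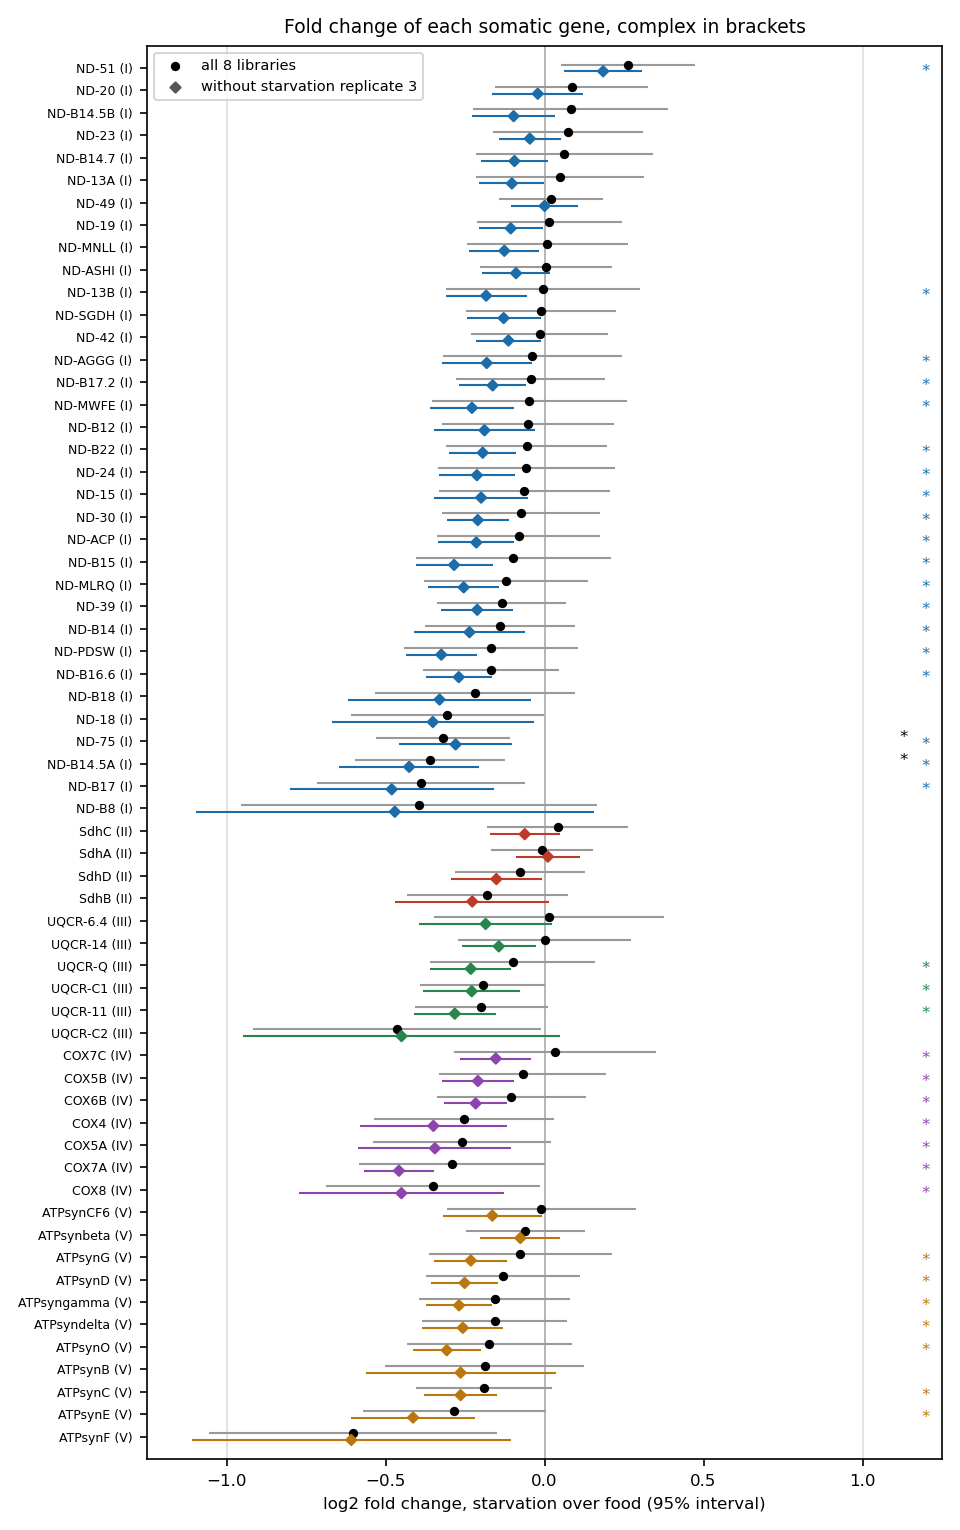
Log2 fold change of starvation over food for the 62 somatic genes with 95% intervals, grouped by complex, with black circles for all 8 libraries and coloured diamonds for the fit without starvation replicate 3. Stars at the right mark an adjusted p under 0.05 in each fit (black 2 genes, coloured 36 genes), and nearly all diamonds lie to the left of their circles.

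A second group of genes varied between libraries in another way. In 8 somatic genes, ATPsynB, ATPsynF, ND-18, ND-75, ND-B17, SdhA, SdhB and UQCR-C2, starvation replicate 1 was the highest starvation library, and in 7 of the 8 food replicates 1 and 4 were both above food replicates 2 and 3. That order of the food libraries held for 20 of the 62 somatic genes and 17.6% of all genes tested. These genes were singled out after their values were seen.

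ATPsynF (chromosome 2R, 24599088 to 24599821), a small membrane subunit of ATP synthase, had the largest fold change among the somatic genes. It had 243, 187, 159 and 229 CPM on food and 189, 122, 136 and 90.8 CPM under starvation. The conditions overlapped because starvation replicate 1 was above food replicates 2 and 3. The log2 fold change was -0.60 (SE 0.21, edgeR adjusted p = 0.051), and DESeq2 and limma-voom called it lower.

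UQCR-C2 (chromosome 3L, 16584124 to 16586111), the other core protein of complex III, had the same order of libraries within each condition as ATPsynF. It had 371, 283, 244 and 354 CPM on food and 318, 215, 220 and 153 CPM under starvation, a log2 fold change of -0.46 (SE 0.20, edgeR adjusted p = 0.12). Both genes varied 1.5-fold among food libraries, where the median somatic gene varied 1.10-fold, and starvation replicate 4 was the lowest library for both. ND-18, the counterpart of mammalian NDUFS4, had a similar profile, with 75.6, 58.4, 58.8 and 73.3 CPM on food and 64.4, 49.3, 59.0 and 42.5 CPM under starvation. Food replicates 1 and 4 and starvation replicate 1 were the high libraries in all 3 genes.

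Cell type markers moved with the conditions beside these results. Fat body markers summed to 6773 to 11369 CPM on food and 959 to 1304 CPM under starvation (8 of 9 tested lower), with Lsp2, apolpp and FASN1 the most abundant. Glia markers summed to 2687 to 3012 and 1643 to 1955 CPM (7 of 7 lower), and photoreceptor markers to 23561 to 26632 and 27991 to 35598 CPM (3 of 9 higher by edgeR, 7 by DESeq2, 2 by limma-voom, and 8 at an unadjusted p under 0.05 in edgeR). Without starvation replicate 3 edgeR called 7 of 9 photoreceptor markers and 1 of 6 neuron markers higher, 0 of 12 muscle markers, and the same numbers of fat body and glia markers lower. With all libraries 0 of 12 muscle markers and 0 of 6 neuron markers were called by edgeR, with 1 and 0 at an unadjusted p under 0.05, and DESeq2 and limma-voom also called 0 in both lists. The part of these markers in the fold changes of the respiratory chain genes was not tested.

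The -like paralogues were nearly silent in the heads. No paralogue exceeded 48 counts in any library, and all 18 together had 119 to 175 counts per food library and 145 to 194 per starvation library. At least 10 counts in any library were reached by 11. Of the 20 testis markers found, bol had 315 to 352 CPM on food and 215 to 374 CPM under starvation, while the other 19 together summed to 14.6 to 18.4 CPM in any library. By edgeR 0 of 12 tested were called, with 1 at an unadjusted p under 0.05, while DESeq2 called 1 and limma-voom 0.

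The best expressed paralogues were UQCR-11L and COX5BL. UQCR-11L had 25, 13, 35 and 10 counts on food and 32, 32, 13 and 22 under starvation, and per kilobase UQCR-11 was 90.4-fold higher on food, the smallest such ratio of any pair. COX5BL lies next to COX5B on chromosome 2L (6559431 to 6560133, with COX5B at 6557800 to 6559308). It had 33, 26, 28 and 23 counts on food and 32, 19, 41 and 48 under starvation, with COX5B 301-fold higher on food. Counts of both overlapped between conditions.

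The other tested paralogues were similar. SdhBL had 38, 17, 15 and 32 counts on food and 32, 23, 18 and 13 under starvation, COX4L had 11, 7, 24 and 17 and then 24, 25, 20 and 19, and COX6AL, named after the COX6A gene levy, had 14, 7, 17 and 16 and then 21, 8, 13 and 18. ATPsynepsilonL, named after the epsilon subunit that is deposited as sun, had 19, 16, 16 and 8 and then 11, 12, 8 and 12 counts. In all 4 the conditions overlapped. On food the somatic gene was 547-fold higher per kilobase for SdhBL, 750-fold for COX4L, 739-fold for COX6AL and 443-fold for ATPsynepsilonL.

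None of the 6 tested paralogues was called by edgeR, and none had an unadjusted p under 0.05. DESeq2 also called 0, with 1 at an unadjusted p under 0.05 among 11 tested, and limma-voom called 0. Log2 fold changes ran from -0.51 (ATPsynepsilonL, SE 0.36) to 0.52 (COX4L, SE 0.37), with a median of 0.15. At these counts precision was low, and the narrowest of the 95% intervals, that of COX5BL, ran from -0.40 to 0.97.

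Among the paralogues under the filter, 5 had at least 10 counts in some library. ATPsynbetaL (chromosome 3L, 16097834 to 16100088) had 7, 3, 4 and 0 counts on food and 11, 8, 16 and 9 under starvation, the only paralogue with every starvation value above every food value, as also seen in 12.6% of all genes tested. ATPsynCF6L had 6, 3, 4 and 12 and then 10, 3, 1 and 2 counts, ND-49L 10, 6, 4 and 10 and then 8, 6, 2 and 6, ND-51L1 6, 6, 10 and 6 and then 2, 3, 2 and 10, and ND-51L2 2, 0, 2 and 4 and then 0, 12, 0 and 4. Those 4 overlapped between conditions. The remaining 7 had at most 8 counts, and ND-B14.5AL and ATPsynGL had 0 in all starvation libraries. A count of 0 in a single library allows for up to 3 if counts are independent, which low counts here may not be.

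**Figure D5:**
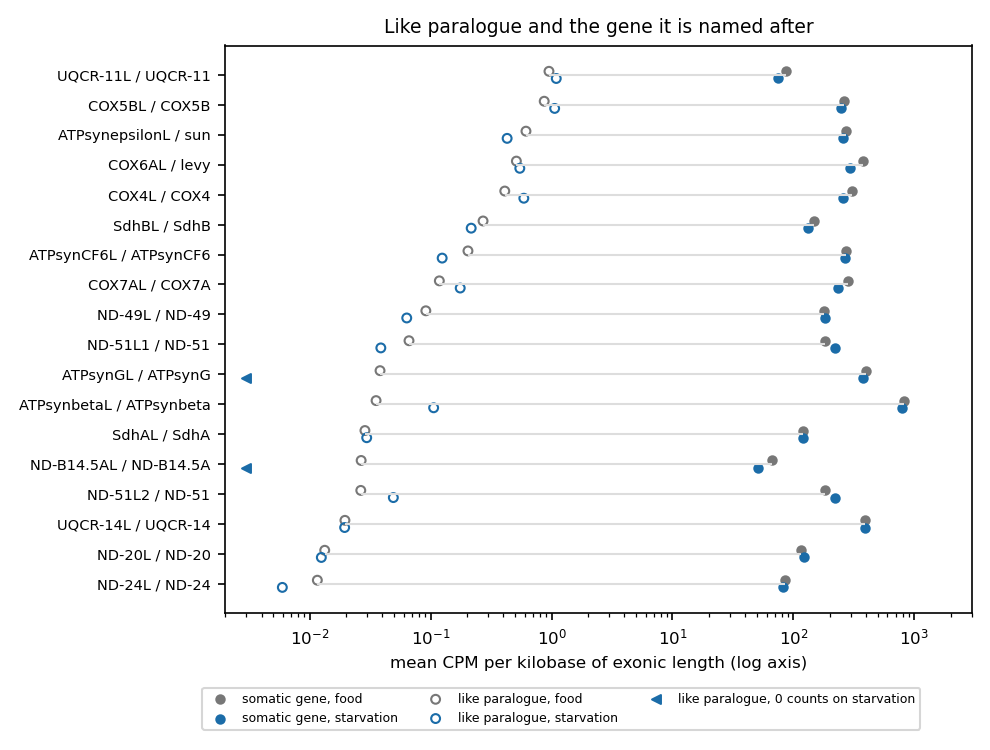
Mean CPM per kilobase of each of the 18 -like paralogues (open circles) and of the gene it is named after (filled circles) on food (grey) and under starvation (blue), on a log axis. Somatic genes lie between 51.4 and 827 and paralogues at or below 1.09, and triangles mark 2 paralogues with 0 counts under starvation.

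Subunits whose names fall outside the rule followed the somatic genes. Of 9 such genes, blw and sun of ATP synthase, levy and cype of complex IV, RFeSP, Cyt-c1 and ox of complex III and the cytochromes Cyt-c-p and Cyt-c-d, 0 were called by edgeR with 3 at an unadjusted p under 0.05, while DESeq2 called 2 and limma-voom 0. Their median was -0.16, and without starvation replicate 3 it was -0.27 with 7 lower, beside 21.6% of all genes. Counts for these genes under other scalings without that library are not given here. RFeSP had 289, 235, 221 and 282 CPM on food and 260, 195, 228 and 144 under starvation, the library order of UQCR-C2. Cyt-c-p, the somatic cytochrome c, was at 383, 357, 339 and 363 CPM on food and 291, 269, 342 and 292 under starvation (-0.27, edgeR adjusted p = 0.053).

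The mitochondrial genome encodes the partner subunits. Of its 13 mRNAs edgeR called 0, with 2 at an unadjusted p under 0.05, DESeq2 called 1 lower and limma-voom 0. Their median was -0.19, and without starvation replicate 3 it was -0.23 with 7 lower. All genes also had more lower calls without that library, 21.6% against 16.7%.

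The shift of starvation replicate 3 was not particular to the respiratory chain. Cytoplasmic ribosomal protein genes, also short, had a median log2 ratio to food of 0.32 in it and -0.35 to -0.15 in the other starvation libraries. Mitochondrial ribosomal protein genes had 0.26 and -0.16 to -0.12. With all libraries 2 of 86 cytoplasmic genes were higher and 1 was lower, and 1 of 73 mitochondrial genes was higher and 2 were lower. Of all genes tested, 26.7% were called in either direction. Without replicate 3, 46.5% of the cytoplasmic and 27.4% of the mitochondrial genes were lower, beside 51.5% of the respiratory chain members and 21.6% of all genes.

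Of 19 tested genes of the citric acid cycle and related enzymes, 6 were lower (31.6%, against 16.7% of all genes) and 0 higher, with a median of -0.21. Without starvation replicate 3, 10 were lower (52.6%, against 21.6% of all genes). The difference from the chain was not tested. They included Pdha (-0.34, edgeR adjusted p = 0.0055) and Pdhb (-0.36, 0.032), the subunits of the E1 part of pyruvate dehydrogenase, and muc (-0.23, 0.031), its E2 subunit. ScsbetaG, a subunit of succinyl-CoA synthetase, was also lower (-0.40, edgeR adjusted p = 0.0074). The 2 genes past 2-fold were Idh (-1.34), the NADP-dependent isocitrate dehydrogenase, and CG1544 (-2.03), while the citrate synthase gene kdn (-0.21, edgeR adjusted p = 0.17) and Idh3b (-0.08, 0.52) were not called.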

How the data were processed

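Poly(A)+ RNA from heads was sequenced as paired ends. According to its methods the study mapped reads with STAR (2.6.1b) and counted them per gene with ASpli. The authors deposited raw counts per gene without normalization, with release 6 coordinates and exonic lengths. The strand setting of the counting was not given in the sources used here. Of values from 1 to 10, 65.7% to 70.9% were even, so a low count may not be that many independent fragments. The 1 row without a name (0.0042% to 0.0054% of counts) was left out, and 0 columns of per-sample values went unused.

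All genes were fitted with edgeR 4.0.16 (R 4.3.3, TMM, filterByExpr, quasi-likelihood test), with Benjamini-Hochberg adjustment over all genes tested. Calls used an adjusted p under 0.05, and a log2 fold change of at least 1 where stated. Each standard error was the absolute fold change over the root of its F value. The scripts were tested on simulated data. Levels are TMM-scaled CPM, per kilobase of exonic length between genes. Library totals were 47936038 to 53168449 counts, and the common biological coefficient of variation was 0.138.

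The name rule for the members used no values, but the rule and the gene lists were set with earlier results of these data known. Named genes were those past both thresholds, up to 3 rises and falls at an adjusted p under 0.05 in each complex, the highest and lowest level of each complex, and -like paralogues with at least 10 counts with their somatic genes. All others were picked with their values in view. The alternatives were RLE and upper-quartile factors, other filters, DESeq2 1.42.0, limma-voom (limma 3.58.1), a replicate block, removal of mitochondrial genome and rRNA genes, removal of the length trend, and each library left out. Nothing in the labels says that samples were separate cultures, so p-values measure the spread between these samples. Of the members, 4 overlap another gene. All 80 matched RefSeq by symbol, and their sequences were not analysed here.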

Additional observations from a re-analysis of the deposited data

Results flagged for a closer look

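Dixon's ratio was taken in 80 sets of 4 values, each condition of the named genes and of the medians by complex. By this ratio 10 values lay apart from the other 3, where chance gives about 4 in independent sets. The sets share libraries and genes, and some genes were picked with values in view, so the 4 is only a rough guide. Of the 10 values, 5 were high values of starvation replicate 3. ND-MLRQ had 267.1 CPM there (others 187 to 194), UQCR-14 265.9 CPM (others 178 to 193) and COX5B 233.6 CPM (others 164 to 167). The median log2 ratio to the food mean was 0.28 for complex I there (others -0.21 to -0.15) and 0.11 for complex V (others -0.29 to -0.23).

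The other 5 lay in other libraries. The median log2 ratio of complex III in food replicate 1 was -0.068 (others 0.02 to 0.03). ND-49 had 291.0 CPM in food replicate 3 (others 284 to 285). COX6AL had 0.138 CPM in food replicate 2 (others 0.302 to 0.334), and ND-51L1 had 0.195 CPM in food replicate 3 (others 0.118 to 0.130) and 0.196 CPM in starvation replicate 4 (others 0.0392 to 0.0575). Those 3 values rest on 7, 10 and 10 counts.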

How the results depend on the processing

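Counts of lower members (2 in the fit reported) were 0 with upper-quartile factors, 1 without a filter, 1 without mitochondrial genome and rRNA genes, 7 with the length trend taken out (19.0% of all genes) and 0 to 35 with 1 library left out. The replicate block gave 4 lower members. Deviations of the food and starvation samples with the same number correlated at 0.01, 0.06, 0.12 and 0.15. No values for samples with different numbers stand beside them, so they cannot say whether samples were paired. Counts of higher members (0) were 1 with upper-quartile factors, with DESeq2 and with the length trend taken out (16.1% of all genes), and 0 to 1 with 1 library left out. Without starvation replicate 3 and with RLE factors, upper-quartile factors or the length trend taken out, chosen after seeing the data, 34, 14 and 15 were lower and 1 was higher in each. The count past 2-fold was 0 throughout. The somatic median was -0.10 to 0.04 over the alternatives with all libraries and -0.22 to -0.00 with 1 left out.

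Several uncalled fold changes crossed 0. With upper-quartile factors these were ND-MLRQ (0.0022), SdhD (0.043), ATPsynCF6 (0.11), ATPsynbeta (0.058), sun (0.053) and COX5B (0.054). ATPsynCF6 was 0.012 with RLE factors and with DESeq2, 0.015 without a filter, 0.019 without mitochondrial genome and rRNA genes, and 0.026 with the length trend taken out. UQCR-14 was -0.016 with limma-voom and -0.017 with the replicate block. With 1 library left out the ranges were -0.14 to 0.076 for UQCR-14, -0.15 to 0.0046 for SdhD, -0.16 to 0.10 for ATPsynCF6, -0.23 to 0.011 for sun, -0.21 to 0.012 for COX5B, -0.13 to 0.31 for COX6AL and -0.023 to 0.54 for UQCR-11L. Apart from the library left out, the cause was not tested. Undivided by length, the order of median food CPM was V (312), IV (212), III (179), II (153) and I (104). Paralogues were limited by depth, and the 4 libraries per condition limited the rest.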

Other observations

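Regulators of mitochondrial gene expression moved in both directions. Of 14 tested, 3 were higher and 2 were lower in edgeR's test, beside 1210 of all 12048 genes tested higher and 16.7% lower. Without starvation replicate 3 the numbers were 3 and 4, beside 15.9% and 21.6% of all genes. The higher genes were ewg (0.39, adjusted p = 0.0078), the counterpart of the mammalian nuclear respiratory factor NRF1, mTerf3 (0.47, 0.0040), a mitochondrial transcription termination family member, and mtRNApol (0.31, 0.014), the mitochondrial RNA polymerase. The lower genes were srl (-0.57, 0.0036), the single fly counterpart of the PGC-1 coactivators, and mtSSB (-0.47, 0.034), which binds single-stranded mitochondrial DNA. TFAM (-0.16, 0.29) was not called.

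Of 8 carriers and uncoupling proteins of the inner membrane tested, 1 was lower, the pyruvate carrier Mpc1 (-0.46, edgeR adjusted p = 0.0017). Without starvation replicate 3, 2 were lower. The shares of all genes called lower were 16.7% and 21.6%. The main ADP/ATP carrier sesB was at 2572 CPM on food and 2524 CPM under starvation (-0.03). Of 5 assembly factors tested, 0 were called by edgeR with 1 at an unadjusted p under 0.05, while DESeq2 called 1 (Cchl, 0.33 in edgeR) and limma-voom 0. Without starvation replicate 3 edgeR called 1 higher and 1 lower.

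RefSeq now gives subunit names to 7 genes deposited under CG symbols, a list added after the data were seen. CG7630 (COX7B) had 186, 190, 201 and 182 CPM on food and 156, 163, 245 and 173 under starvation, with starvation replicate 3 again highest and the other starvation libraries below all food libraries. CG34172 (COX7AL2) had 38.7 ± 3.56 CPM on food (SD, n = 4) and 39.0 ± 8.17 CPM when starved, far above the paralogues that the name rule took. CG14077 (COX6AL2) was at 3.12 and 3.24 CPM and the other 4 at or below 0.464 CPM on food. Of the 5 tested 0 were called by edgeR, DESeq2 or limma-voom, and 1 had an unadjusted p under 0.05 by each, while 1 was lower without starvation replicate 3.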
